A study of Mus musculus with 15 samples.

Results

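The NADPH oxidase, thioredoxin system and antioxidant peroxidase genes described here are Cybb, Cyba, Ncf1, Ncf4, Txnip, Txn1, Txnrd1, Prdx1 and Gpx1. They were listed by name, with no threshold on their values, as 9 of the 36528 gene models counted, and all 9 passed the filter on low counts that left 13994 genes for testing. RNA was sequenced from fluorescent cells sorted from mouse cortex and labelled as microglia, the resident macrophages of the brain. The groups were PS2APP (n = 9), with 4 samples at 14 months and 5 at 15 months of age, and non-Tg (n = 6), with 2 samples at 14 months and 4 at 15 months. PS2APP mice carry mutant human presenilin 2 and amyloid precursor protein transgenes and form amyloid plaques. The non-Tg samples carry neither, and the series design calls them wildtype. Both groups carry the Cx3cr1::GFP reporter, green fluorescent protein under control of the fractalkine receptor gene that microglia use, and were sorted on it. The sources used here do not give the strain, the promoters that drive the transgenes, the copy number of the reporter allele, or whether each sample is 1 mouse or a pool. The p-values below therefore measure the spread between these samples, part of which may be technical.

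The phagocyte NADPH oxidase passes electrons from NADPH across a membrane to oxygen and so makes superoxide, a reactive oxygen species that microglia release on activation. Cybb (gp91phox) is its catalytic subunit and Cyba (p22phox) the membrane partner that stabilises it, while Ncf1 (p47phox) and Ncf4 (p40phox) are cytosolic subunits that join the complex on stimulation. On the other side of the balance, thioredoxin (Txn1) reduces disulfide bonds in proteins, thioredoxin reductase (Txnrd1) recharges it with electrons from NADPH, and the peroxiredoxin Prdx1 and the glutathione peroxidase Gpx1 remove hydrogen peroxide. Txnip binds reduced thioredoxin and inhibits it. It is also an alpha-arrestin that takes glucose transporters off the cell surface, and its transcription follows glucose.

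The libraries held 3664742 to 8455237 counted reads each (median 5867848). The 12 microglial marker genes were all detected, with sums of 27913 to 41135 CPM (reads scaled to effective library size) in PS2APP and 35795 to 48068 CPM in non-Tg samples, and none was called. In 4 libraries immediate early genes, which cells switch on within minutes of a stimulus, stood apart: 18 such genes summed to 5057 and 5202 CPM in PS2APP samples 1 and 4, against 627 to 863 CPM in the other PS2APP samples, and to 11111 and 21230 CPM in non-Tg samples 9 and 13, against 615 to 725 CPM in the other non-Tg samples. There were 3 libraries low in Xist, non-Tg sample 13 being in both sets. Xist is the RNA that coats the inactive X chromosome in females, and it had 16.7 CPM in PS2APP sample 14, and 20.8 and 47.0 CPM in non-Tg samples 12 and 13, against 3676 CPM or more in each other library. Sex is not given in the labels. The Y-linked gene Ddx3y had 110 CPM in PS2APP sample 14, and 99.2 and 231 CPM in non-Tg samples 12 and 13. Every other library had at most 0.681 CPM. Low Xist with Ddx3y reads is the pattern of male cells, and sex was not a term in the model. Neuron markers summed to 29.0 to 129 CPM in PS2APP and 164 to 278 CPM in non-Tg samples, with no overlap between the groups, and 2 of the 8 tested were called. Astrocyte markers summed to 319 to 623 CPM in PS2APP and 455 to 1088 CPM in non-Tg samples (2 of 8 tested called). Oligodendrocyte markers summed to 133 to 286 CPM in PS2APP and 187 to 771 CPM in non-Tg samples (1 of 6 called). Vessel cell markers summed to 36.1 to 64.3 CPM in PS2APP and 42.5 to 95.1 CPM in non-Tg samples (2 of 6 called). Choroid plexus markers summed to 4.61 to 32.3 CPM in PS2APP and 1.94 to 413 CPM in non-Tg samples (2 of 2 called). The sums of these 4 lists overlapped between the groups. Within a list the genes differed in direction. Gfap averaged 15.4 CPM in PS2APP and 3.66 CPM in non-Tg samples, and Slc1a2 244 and 492 CPM. Cspg4 averaged 14.9 and 0.831 CPM in the same order, and Mobp 27.3 and 75.6 CPM. Flt1 averaged 24.4 and 5.42 CPM, and Pecam1 15.9 and 36.0 CPM. In sorted cells measured in bulk, the number of cells of a type and the RNA per cell cannot be told apart.

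Txnip was the only 1 of the 9 genes called for genotype, 2.02-fold lower in PS2APP microglia. A missed threshold does not show that a level was unchanged. The other 8, which include every oxidase subunit, thioredoxin, its reductase and both peroxidases, did not pass the threshold of an adjusted p of 0.05 (edgeR quasi-likelihood test with Benjamini-Hochberg adjustment over 13994 genes). Over all genes tested 1.18% were called, 0.958% higher and 0.222% lower in PS2APP. Of the 9 genes 0 were called higher and 1 lower, and 2 had an unadjusted p under 0.05, where 11.7% of all genes did. Their median log2 fold change was -0.01, against -0.02 over all genes tested. For none of the 9 were the PS2APP and non-Tg samples free of overlap, as they were for 0.636% of all genes tested.

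**Figure D1:**
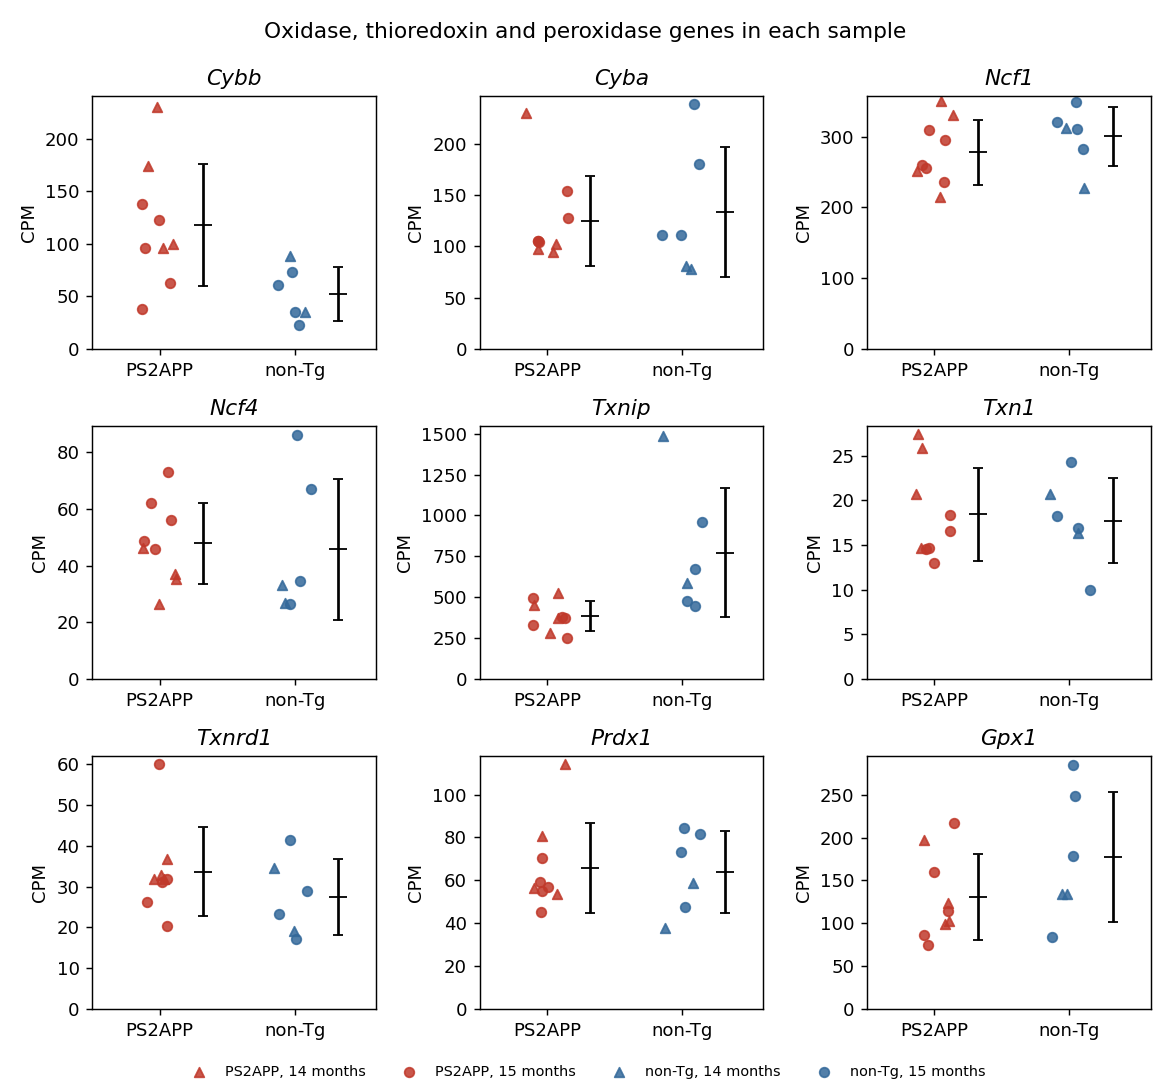
Level of each of the 9 genes in every sample, in CPM on a linear axis, with PS2APP (red) left and non-Tg (blue) right in each panel; triangles are samples at 14 months and circles at 15 months, and the black bar is the mean ± SD. Txnip points sit lower in PS2APP (250.1 to 524 CPM) than in non-Tg samples (447 to 1486 CPM) and Cybb points mostly higher, with overlap in every panel.

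Set per length of transcript, in the authors' RPKM (read counts divided by gene length and by library size, with a further size factor for each sample), the genes spanned a wide range of levels. In PS2APP samples Cyba had 42.4 ± 14.7 RPKM, Txnip 36.6 ± 8.73 RPKM, Gpx1 33.2 ± 12.5 RPKM and Ncf1 24.9 ± 4.12 RPKM (SD, n = 9), so that each lay within the larger SD of its neighbour in this order. In non-Tg samples Txnip was first at 73.5 ± 37.5 RPKM, before Cyba at 45.5 ± 21.5 RPKM, Gpx1 at 45.3 ± 19.3 RPKM and Ncf1 at 27.0 ± 3.605 RPKM (SD, n = 6). Prdx1 followed at 12.4 ± 3.89 RPKM in PS2APP and 12.04 ± 3.53 RPKM in non-Tg samples, further below Ncf1 than either SD. In PS2APP samples Ncf4 (7.23 ± 2.16 RPKM), Cybb (6.53 ± 3.21 RPKM) and Txn1 (4.67 ± 1.32 RPKM) came next, each within the larger SD of its neighbour. In non-Tg samples the order was Ncf4 (6.92 ± 3.73 RPKM), Txn1 (4.51 ± 1.21 RPKM) and Cybb (2.93 ± 1.44 RPKM), and only the step between the last pair was wider than the larger SD. Txnrd1 came last in both groups, at 2.24 ± 0.729 RPKM in PS2APP and 1.82 ± 0.628 RPKM in non-Tg samples. Per length, the catalytic subunit Cybb was thus listed below its membrane partner Cyba in both groups, by more than either SD.

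Among the oxidase subunits, Cybb (Gene ID 13058, GRCm38 chromosome X, 9435252 to 9487766) had the widest gap between the groups. Its lowest PS2APP sample had 38.3 CPM, the median 99.5 CPM and the highest 230.5 CPM, against 23.1, 48.1 and 88.7 CPM in non-Tg samples. Thus 7 of 9 PS2APP samples lay above every non-Tg sample, and the other two were PS2APP samples 1 and 15. The means were 118 ± 58.0 CPM in PS2APP (SD, n = 9) and 52.7 ± 25.7 CPM in non-Tg samples (SD, n = 6), a log2 difference of 1.06 ± 0.31 (SE; 95% interval 0.41 to 1.71) that did not pass (edgeR adjusted p = 0.126; unadjusted p = 0.00272). At 14 months the means were 150 ± 64.5 CPM in PS2APP (SD, n = 4) and 61.8 ± 38.0 CPM in non-Tg samples (SD, n = 2), and at 15 months 91.6 ± 41.2 CPM (SD, n = 5) and 48.2 ± 23.2 CPM (SD, n = 4). The call depends on the test and the filter. DESeq2 (log2 1.06, adjusted p = 0.0217) and limma-voom with quality weights (log2 1.40, adjusted p = 0.0258) both made it. So did edgeR with no count filter. With the filter edgeR did not, whichever 1 of the 15 samples was left out (log2 0.88 to 1.24). Without the 3 libraries low in Xist the X-linked Cybb had a log2 difference of 0.69 (edgeR adjusted p = 0.426).

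Cyba (13057, chromosome 8, 122424771 to 122432940), whose protein forms the membrane heterodimer with that of Cybb, had 94.1, 105 and 230.0 CPM as its lowest, median and highest PS2APP values, against 77.5, 111 and 238 CPM in non-Tg samples. The ranges nearly coincide, and the log2 difference was -0.02 ± 0.25 (SE; 95% interval -0.55 to 0.50; edgeR adjusted p = 0.986). The highest value of each group came from PS2APP sample 8 and non-Tg sample 11, the libraries with the highest summed RPKM (99814 and 101877, against 78573 to 93342 in the others); the part of this in the Cyba values was not tested.

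The cytosolic subunit Ncf1 (17969, chromosome 5, 134220053 to 134229628) was the steadiest of the 9 genes, with a coefficient of variation of 16.4% in PS2APP and 13.8% in non-Tg samples. Its lowest, median and highest values were 215, 259 and 351 CPM in PS2APP and 228, 312 and 349.6 CPM in non-Tg samples. The log2 difference was -0.11 ± 0.14 (SE; edgeR adjusted p = 0.844), and its 95% interval of -0.41 to 0.19 leaves out a 2-fold difference in either direction. Ncf4 (17972, chromosome 15, 78244164 to 78262582), the subunit that binds a phospholipid of phagosomes, had 26.5, 46.1 and 73.0 CPM in PS2APP and 26.5, 33.9 and 86.1 CPM in non-Tg samples. The groups overlapped throughout, with a log2 difference of 0.15 ± 0.23 (SE; 95% interval -0.33 to 0.64; edgeR adjusted p = 0.865).

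Neutrophils and monocytes also use this oxidase, so their markers were read beside it. Only 1 of 16 such markers passed the filter, the monocyte receptor Ccr2 with 30.15 CPM in PS2APP and 27.4 CPM in non-Tg samples, and the 16 together summed to 26.1 to 48.8 CPM in PS2APP and 19.0 to 118 CPM in non-Tg samples. Over all samples of a group the neutrophil genes Ly6g, Mpo and Elane had 1, 1 and 0 reads in PS2APP and 4, 3 and 2 reads in non-Tg samples. The calgranulin S100a8 averaged 1.09 CPM in PS2APP and 8.42 CPM in non-Tg samples, S100a9 0.477 and 7.23 CPM, and Ngp 0.163 and 4.70 CPM. Ly6c2 (1.17 and 0.191 CPM) and Plac8 (1.75 and 0.505 CPM) were higher in PS2APP, as was Ccr2. The part of these cells in the oxidase levels was not tested. Markers of border macrophages, which lie in the meninges and around vessels, summed to 63.0 to 254 CPM in PS2APP and 37.5 to 239 CPM in non-Tg samples; their part in the oxidase levels was not tested.

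Txnip (56338, chromosome 3, 96557957 to 96561857), the thioredoxin inhibitor, carried the clearest change. The PS2APP samples had 250.1, 281, 330.5, 372, 375, 379, 455, 492.9 and 524 CPM, set here in order of size. The non-Tg samples had 447, 475, 587, 674, 962 and 1486 CPM, also in order of size. All 9 PS2APP samples lay below the non-Tg median of 631 CPM and 6 of them below every non-Tg sample, while 4 non-Tg samples lay above every PS2APP sample. The means were 385 ± 92.3 CPM in PS2APP (SD, n = 9) and 772 ± 396 CPM in non-Tg samples (SD, n = 6). Txnip fell by 1.01 ± 0.22 on the log2 scale (SE; 95% interval -1.46 to -0.57; edgeR adjusted p = 0.0171; unadjusted p = 0.000117).

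Within each age the direction was the same, with fewer samples and no call. At 14 months Txnip had 408 ± 105 CPM in PS2APP (SD, n = 4) and 1037 ± 636 CPM in non-Tg samples (SD, n = 2). The ranges were 281 to 524 and 587 to 1486 CPM, and the log2 difference was -1.31 (edgeR adjusted p = 0.176). With 4 against 2 samples, ranges can easily stay apart by chance, and the share of all genes doing so was not counted. At 15 months Txnip had 366 ± 88.1 CPM in PS2APP (SD, n = 5) and 639.6 ± 238 CPM in non-Tg samples (SD, n = 4), a log2 difference of -0.82 (edgeR adjusted p = 0.172). The libraries that stand apart in immediate early genes held high Txnip values in both groups: PS2APP samples 1 and 4 had 492.9 and 524 CPM, and non-Tg samples 9 and 13 had 962 and 1486 CPM.

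**Figure D2:**
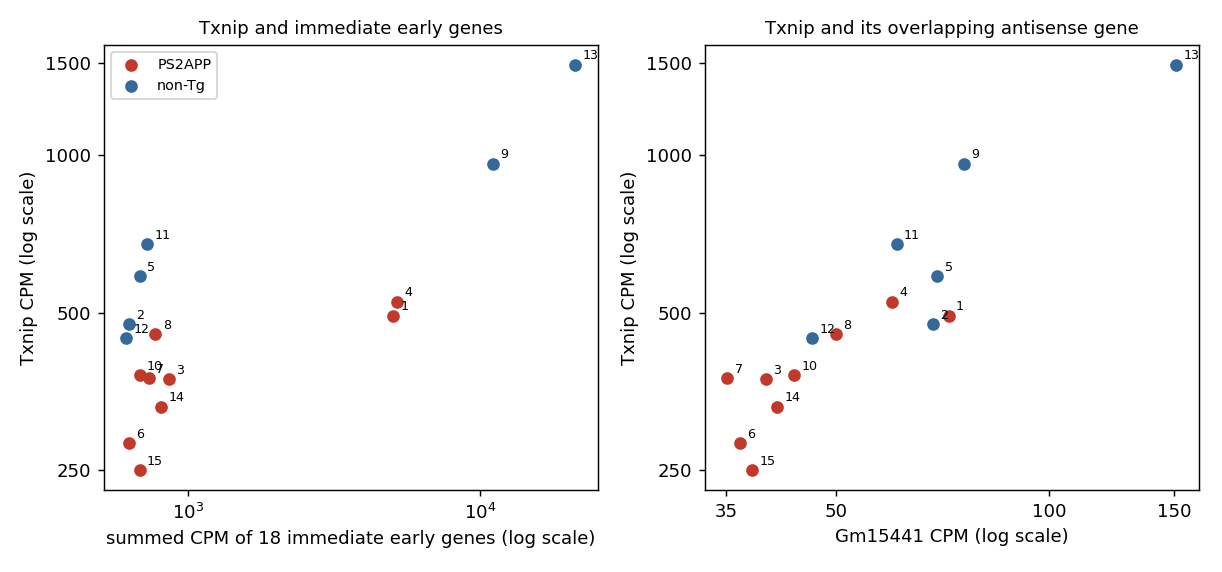
Txnip level (CPM, log axis) in each numbered sample against the summed CPM of 18 immediate early genes (left, log axis) and against the CPM of its overlapping antisense gene Gm15441 (right, log axis), with PS2APP in red and non-Tg in blue. The 4 libraries at the right of the left panel have the highest Txnip values of their group, and non-Tg sample 13 is highest in both genes (1486 CPM Txnip, 151 CPM Gm15441).

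Without those 4 libraries the log2 difference of Txnip was -0.67 ± 0.18 (SE; edgeR adjusted p = 0.0768), and the call was lost; with the immediate early score of each sample as a covariate it was -0.78 ± 0.14 (SE; edgeR adjusted p = 0.00501). Leaving out non-Tg sample 9 or 13 alone also ended the call (log2 -0.89 with adjusted p = 0.0519, and -0.74 with adjusted p = 0.0953, edgeR), as did leaving out the 3 libraries low in Xist, sample 13 among them (log2 -0.81, edgeR adjusted p = 0.142). The summed neuron markers were lower in every PS2APP sample than in any non-Tg sample. Markers of astrocytes, oligodendrocytes, vessel cells and choroid plexus, with their sums given above, also held called genes. With the neuron score as a covariate the difference was -1.14 ± 0.40 (SE; edgeR adjusted p = 0.9995). That score, a mean log2 CPM, was at most 2.95 in PS2APP and at least 3.25 in non-Tg samples. A fit with it therefore cannot cleanly separate the score from genotype, for Txnip or for any other gene. The part of the other cell types in the Txnip values was not tested.

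A gene on the other strand, Gm15441, overlaps all of Txnip, and the strandedness of the libraries is not given in the sources used here, so reads of the pair may not be fully separated. By the root mean square difference of log2 CPM profiles over the 15 samples, each centred on its own mean, Gm15441 was also the gene most like Txnip, at 0.260 on the log2 scale, where Txnip itself had an SD of 0.663. It had 46.3 ± 12.4 CPM in PS2APP and 78.7 ± 36.9 CPM in non-Tg samples (log2 difference -0.76 ± 0.22, edgeR adjusted p = 0.113). DESeq2 called it (log2 -0.77, adjusted p = 0.0384), as did edgeR with no count filter (adjusted p = 0.0169) and without PS2APP sample 1 (log2 -0.91, adjusted p = 0.0237). Next came Ppp1r10, a regulatory subunit of protein phosphatase 1, at 0.265 and Mat2a, which makes S-adenosylmethionine, at 0.297. Neither was called (log2 -0.93 ± 0.26 with edgeR adjusted p = 0.101, and -0.51 ± 0.22 with edgeR adjusted p = 0.360). For Cybb, the other gene with a wide spread over samples (SD 0.931), the nearest profiles were farther off: Slc44a1, a choline transporter, at 0.540, Cd63, a tetraspanin of late endosomes, at 0.543, and Plaur, the urokinase receptor, at 0.573. Their log2 differences were 0.71 ± 0.22 for Slc44a1, 0.93 ± 0.23 for Cd63 and 1.27 ± 0.32 for Plaur (edgeR adjusted p = 0.151, 0.0534 and 0.0509), so none of the 3 was called.

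Thioredoxin itself, Txn1 (22166, chromosome 4, 57943373 to 57956411), the protein that Txnip inhibits, had 12.95, 16.6 and 27.5 CPM as its lowest, median and highest PS2APP values, against 9.98, 17.5 and 24.2 CPM in non-Tg samples. The samples were intermixed, and the log2 difference was -0.01 ± 0.24 (SE; 95% interval -0.52 to 0.50; edgeR adjusted p = 0.994). It was the most thinly counted of the 9 genes, with 52 to 156 reads per PS2APP sample and 59 to 157 reads per non-Tg sample. Txnrd1 (50493, chromosome 10, 82833951 to 82897724), the cytosolic reductase, had 20.4, 31.98 and 60.0 CPM in PS2APP against 17.2, 26.01 and 41.4 CPM in non-Tg samples. Apart from PS2APP sample 15, the highest, these ranges largely coincide, although 8 of 9 PS2APP samples lay above the non-Tg median. The log2 difference of 0.30 ± 0.25 did not pass (SE, 95% interval -0.21 to 0.82, edgeR adjusted p = 0.697). Eid3, another gene, lies within the Txnrd1 coordinates, and its part in the Txnrd1 reads was not tested.

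Of the peroxidases, Prdx1 (18477, chromosome 4, 116685599 to 116700000), which thioredoxin recharges, had 45.1, 57.0 and 114 CPM in PS2APP against 37.7, 66.1 and 84.6 CPM in non-Tg samples. The log2 difference was 0.02 ± 0.23 (SE; 95% interval -0.45 to 0.49; edgeR adjusted p = 0.986); Prdx1 has a near-identical pseudogene copy, and unique alignment may drop some of its reads. Gpx1 (14775, chromosome 9, 108339080 to 108340342), a selenoprotein that uses glutathione in place of thioredoxin, had 74.5, 115 and 217 CPM in PS2APP against 84.3, 156 and 285 CPM in non-Tg samples. Its means were 130.4 ± 49.95 CPM in PS2APP (SD, n = 9) and 177 ± 76.3 CPM in non-Tg samples (SD, n = 6). The spread within each group was wider than the gap, and the log2 difference of -0.40 ± 0.26 did not pass (SE; 95% interval -0.94 to 0.14; edgeR adjusted p = 0.590).

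Partners were then set against each other within each sample as log2 ratios of their counts, 4 ratios in all, with the groups compared by exact permutation (two-sided, 5005 arrangements) and p adjusted over the 4. Samples of both ages were permuted together, so these p-values do not take age into account. The inhibitor against its target, Txnip to Txn1, was 4.38 ± 0.559 in PS2APP (SD, n = 9) and 5.35 ± 0.563 in non-Tg samples (SD, n = 6), a difference of -0.97 (exact permutation p = 0.00579, adjusted 0.0184). Txnip to Txnrd1 was 3.53 ± 0.705 in PS2APP and 4.75 ± 0.841 in non-Tg samples, a difference of -1.22 (exact permutation p = 0.00919, adjusted 0.0184). Both ratios contain Txnip and are not independent of its fall. The ranges of Txnip to Txn1 were 3.44 to 5.15 in PS2APP and 4.72 to 6.16 in non-Tg samples, so the groups overlapped.

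The catalytic to the stabilising subunit of the oxidase, Cybb to Cyba, was -0.19 ± 0.800 in PS2APP and -1.37 ± 0.815 in non-Tg samples, a difference of 1.18 (exact permutation p = 0.0202, adjusted 0.0269). The ratio contains Cybb and is not independent of its log2 difference of 1.06, while that of Cyba was -0.02. Neither gene passed on its own. The ratio was adjusted over only 4 ratios, chosen with earlier results known, and each gene over 13994. Its call is thus not evidence of a changed proportion separate from the uncalled Cybb difference. The ratio lost the call without non-Tg sample 2 (1.14), 9 (1.12), 11 (1.11) or 12 (1.0), with adjusted exact permutation p of 0.0506 to 0.0666, and the Txnip ratios lost theirs without non-Tg sample 9 (-0.89 and -1.01). Ncf1 to Ncf4, the pair of cytosolic subunits, was 2.58 ± 0.435 in PS2APP and 2.86 ± 0.593 in non-Tg samples, a difference of -0.28 (exact permutation p = 0.300). Without the 4 libraries that stand apart in immediate early genes, the differences were -0.88 and -1.01 for the Txnip ratios and 1.38 for Cybb to Cyba (exact permutation, adjusted p = 0.0364, 0.0444 and 0.0364).

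**Figure D3:**
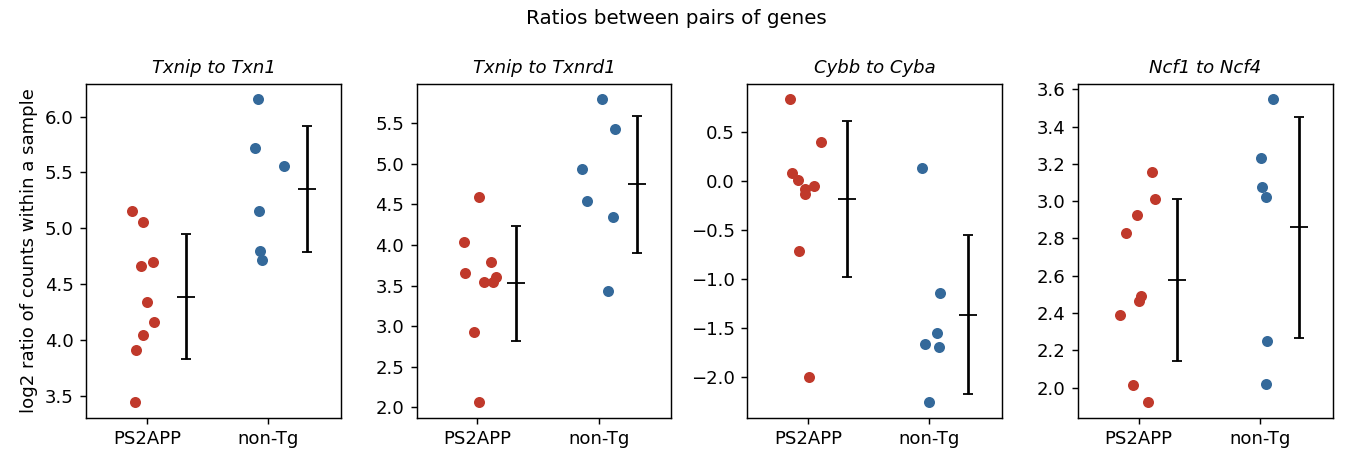
Log2 ratio of counts between partner genes in each sample, with PS2APP (red) left and non-Tg (blue) right in each panel; points are samples and the black bar is the mean ± SD. Txnip to Txn1 and Txnip to Txnrd1 lie lower in PS2APP, Cybb to Cyba lies higher, and all 4 ratios overlap between the groups.

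The rest of each pathway was read from 5 lists of related genes. Of 15 other oxidase genes (such as homologues and Rac GTPases), 9 were tested and 0 were called in either direction, with a median log2 fold change of -0.18. The smallest p belonged to Rac1, the GTPase that switches the oxidase on in many cells, with 505 ± 90.7 CPM in PS2APP and 598 ± 48.5 CPM in non-Tg samples (log2 -0.28 ± 0.13, edgeR adjusted p = 0.405). Rac2, its relative in blood cells, had a log2 difference of -0.27 ± 0.15 (edgeR adjusted p = 0.510), and Duoxa1, a maturation factor of dual oxidases, one of -0.75 ± 0.43 (edgeR adjusted p = 0.524).

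Of 15 other thioredoxin and arrestin family genes, 13 were tested, 1 rose and 0 fell, with a median of -0.10. The gene that rose was Arrdc4 (66412, chromosome 7, 68736994 to 68749238), a close paralog of Txnip that also acts on glucose transporters. PS2APP samples had 21.6, 27.5 and 40.4 CPM as lowest, median and highest values, against 6.27, 12.1 and 17.7 CPM in non-Tg samples, so every PS2APP sample lay above every non-Tg sample. The means were 28.8 ± 5.97 CPM in PS2APP (SD, n = 9) and 12.6 ± 3.91 CPM in non-Tg samples (SD, n = 6), a log2 difference of 1.21 ± 0.24 or 2.31-fold (SE; 95% interval 0.70 to 1.71; edgeR adjusted p = 0.0113). Arrdc4 and Txnip, which are known to share glucose-driven transcription, differed between the groups in opposite directions. Whether they also did so from sample to sample within a group was not tested. The Arrdc4 call held whichever 1 of the 15 samples was left out (log2 1.07 to 1.31). It was lost without the 4 libraries that stand apart in immediate early genes (log2 1.0, edgeR adjusted p = 0.0751), without the 3 low in Xist (log2 1.35, edgeR adjusted p = 0.0544), within each age alone, and with the neuron score as a covariate.

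Arrdc3, another alpha-arrestin, had 44.6, 56.1 and 155.5 CPM in PS2APP and 35.6, 102 and 1085 CPM in non-Tg samples, where the highest value was non-Tg sample 13. Its log2 difference of -1.47 ± 0.53 did not pass (edgeR adjusted p = 0.229) and was -0.37 without that sample. With no count filter edgeR called Arrdc3 (log2 -1.47 ± 0.19, adjusted p = 8.71e-12). The log2 difference was thus the same and only the SE was smaller, in a fit that still held non-Tg sample 13. Arrdc2 (log2 0.62 ± 0.42, edgeR adjusted p = 0.609) and the mitochondrial glutaredoxin Glrx2 (log2 0.23 ± 0.17, edgeR adjusted p = 0.650) were not called.

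**Figure D4:**
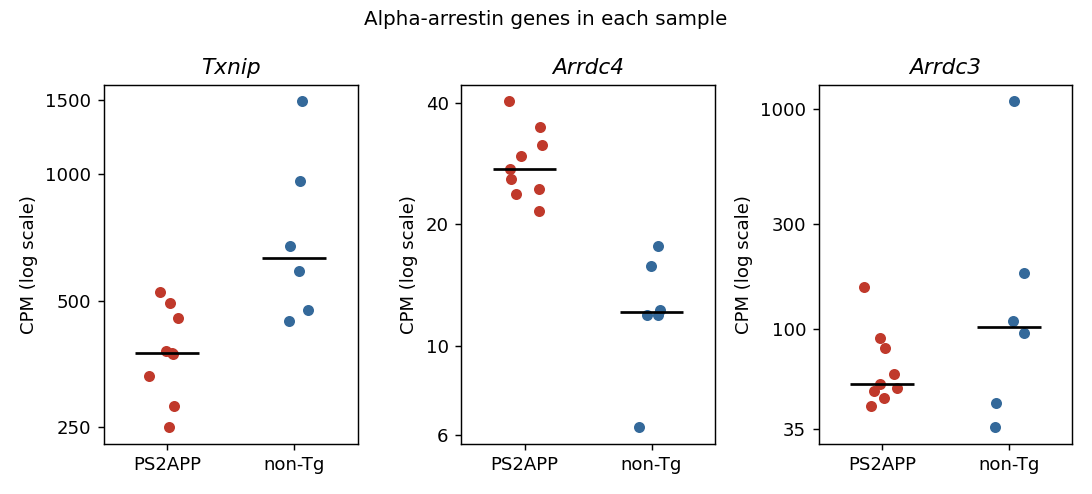
Levels (CPM, log axis) of Txnip, Arrdc4 and Arrdc3 in each sample, PS2APP (red) left and non-Tg (blue) right; points are samples and black lines are group medians. Arrdc4 separates the groups without overlap (21.6 to 40.4 CPM in PS2APP against 6.27 to 17.7 CPM in non-Tg), Txnip lies lower in PS2APP, and Arrdc3 has 1 non-Tg sample at 1085 CPM.

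Since Txnip and Arrdc4 differed between the groups in opposite directions, the promoter sequences of both are shown. They are the 250 bases before the start in RefSeq on GRCm38.p6, 5′ to 3′ on the strand of the gene. The capitals in Txnip mark a match to a carbohydrate response element, the motif bound by the glucose-sensing factors Mlxipl (ChREBP) and Mlxip (MondoA), searched on both strands as the half-site CACGNG followed, after 5 bases, by CACGNG again. These letters were set after the Txnip window had been read, so the match there is a description. The capitals in Arrdc4 mark a match to an antioxidant response element, the motif bound by Nfe2l2 (NRF2), searched as TGACNNNGC on both strands.
Txnip, chr3:96557707-96557956, plus strand: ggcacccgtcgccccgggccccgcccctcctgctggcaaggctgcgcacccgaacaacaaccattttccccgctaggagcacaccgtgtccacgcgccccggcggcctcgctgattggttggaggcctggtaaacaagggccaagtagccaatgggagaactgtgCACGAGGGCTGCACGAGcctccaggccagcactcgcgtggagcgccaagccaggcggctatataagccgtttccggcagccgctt
Arrdc4, chr7:68749239-68749488, minus strand: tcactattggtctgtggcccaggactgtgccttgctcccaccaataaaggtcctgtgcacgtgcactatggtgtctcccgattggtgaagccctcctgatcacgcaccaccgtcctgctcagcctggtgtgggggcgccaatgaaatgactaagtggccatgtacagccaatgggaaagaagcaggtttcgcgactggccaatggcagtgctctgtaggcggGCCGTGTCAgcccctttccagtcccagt
The Txnip match lies 85 to 69 bases before the start, and the letters searched occur in 15 of 32851 promoter windows of this length (0.0457%). The Arrdc4 window holds none with this exact spacing, from which nothing is drawn about the factors. Its antioxidant motif lies 28 to 20 bases before the start, and 3338 windows (10.2%) hold those letters. The factors' own genes were picked after their values were seen: Mlxipl had 250.2 ± 84.1 CPM in PS2APP and 239 ± 63.7 CPM in non-Tg samples (log2 0.08 ± 0.20, edgeR adjusted p = 0.934), and Mlxip 119 ± 27.1 CPM in PS2APP and 112 ± 29.4 CPM in non-Tg samples (log2 0.10 ± 0.19, edgeR adjusted p = 0.900).

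Of 10 genes of glucose uptake, glucose sensing and Txnip signalling, all 10 were tested and 0 were called, with a median of 0.09. Slc2a5, a fructose transporter that marks microglia, had 370.1 ± 75.9 CPM in PS2APP and 550.3 ± 186 CPM in non-Tg samples (log2 -0.54 ± 0.18, edgeR adjusted p = 0.175). It was called without the 4 libraries that stand apart in immediate early genes (log2 -0.82, edgeR adjusted p = 0.0388). Nlrp3, the inflammasome sensor to which Txnip protein is reported to bind, had 109.6 ± 24.0 CPM in PS2APP and 164 ± 65.1 CPM in non-Tg samples (log2 -0.58 ± 0.21, edgeR adjusted p = 0.232). Slc2a1, the glucose transporter that Txnip and Arrdc4 act on, had 81.2 ± 25.7 CPM in PS2APP and 56.0 ± 16.5 CPM in non-Tg samples (log2 0.51 ± 0.23, edgeR adjusted p = 0.394).

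Of 19 other peroxidase, dismutase and peroxiredoxin-repair genes, 14 were tested and 0 were called, with a median of -0.15. Prdx4, the X-linked peroxiredoxin of the endoplasmic reticulum, had 41.2 ± 15.6 CPM in PS2APP and 21.4 ± 7.29 CPM in non-Tg samples (log2 0.93 ± 0.28, edgeR adjusted p = 0.134). DESeq2 called it (log2 0.92, adjusted p = 0.0356), and so did edgeR with no count filter (log2 0.94, adjusted p = 0.0165). Srxn1, which repairs over-oxidised peroxiredoxins, had 8.71 ± 5.16 CPM in PS2APP and 3.56 ± 3.22 CPM in non-Tg samples (log2 1.36 ± 0.51, edgeR adjusted p = 0.249). Sesn1, a stress-induced sestrin, had 141 ± 20.1 CPM in PS2APP and 195 ± 52.3 CPM in non-Tg samples (log2 -0.44 ± 0.16, edgeR adjusted p = 0.214). Of 20 glutathione and NRF2 target genes, 17 were tested and 0 were called, with a median of -0.04. Those with the smallest p were Blvrb, a biliverdin reductase (log2 -0.60 ± 0.28, edgeR adjusted p = 0.403), Gsr, which recharges glutathione (log2 0.56 ± 0.28, edgeR adjusted p = 0.435), and Gss, which makes it (log2 -0.95 ± 0.53, edgeR adjusted p = 0.516).

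**Figure D5:**
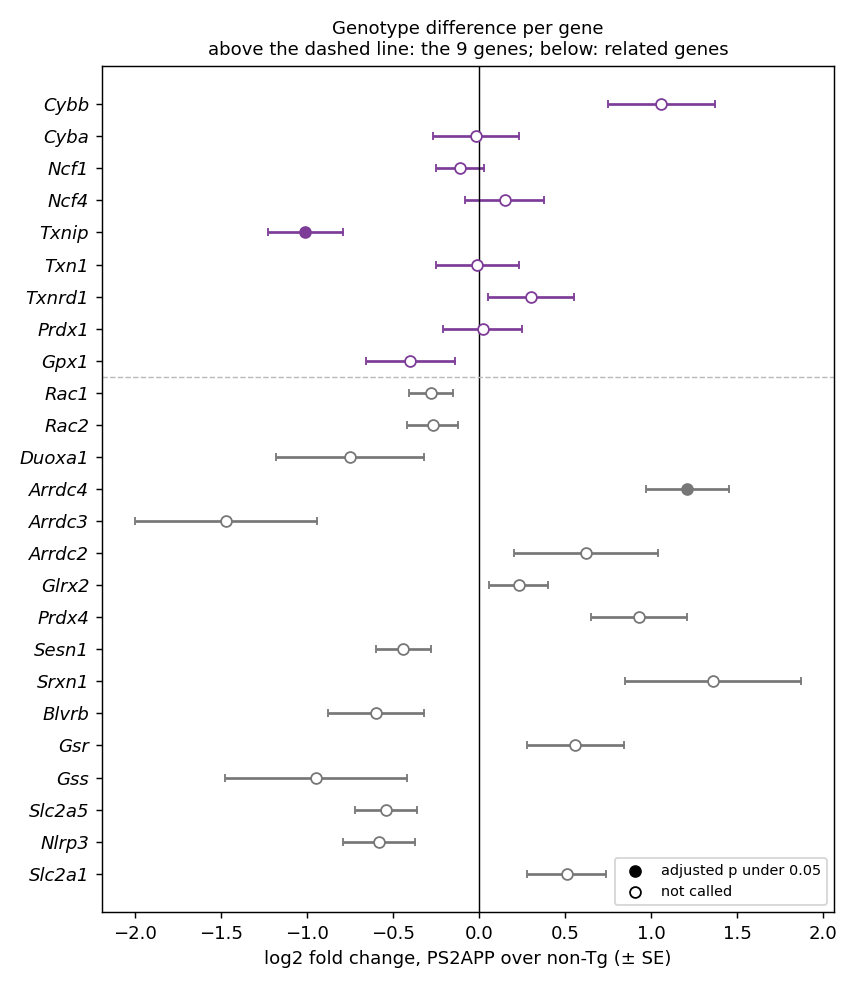
Log2 fold change, PS2APP over non-Tg, with its SE from the edgeR model, for the 9 genes (purple, above the dashed line) and the related genes named by rule (grey, below it); filled points passed the adjusted threshold. The filled points are Txnip at -1.01 ± 0.22 and Arrdc4 at 1.21 ± 0.24.

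Age was compared as 15 against 14 months, with genotype in the model, and 0% of the 13994 genes were called, although 7.95% had an unadjusted p under 0.05 and DESeq2 called 10 genes, none of the 9 among them. The smallest p of the 9 was that of Ncf4, which had 57.1 ± 10.9 CPM at 15 months and 36.3 ± 8.005 CPM at 14 months in PS2APP, and 53.6 ± 27.9 CPM at 15 months and 30.0 ± 4.43 CPM at 14 months in non-Tg samples. In edgeR this was a log2 difference of 0.72 ± 0.24 (SE; unadjusted p = 0.00580, adjusted p = 0.550). The difference of the genotype effect between the ages was likewise called by edgeR for 0% of genes (7.42% at an unadjusted p under 0.05) and by DESeq2 for 6, none of them among the 9. Cyba and Prdx1 had the smallest p. Cyba had 131 ± 66.1 CPM in PS2APP (SD, n = 4) and 79.3 ± 2.60 CPM in non-Tg samples (SD, n = 2) at 14 months, and 119 ± 21.9 CPM in PS2APP (SD, n = 5) and 160.2 ± 61.4 CPM in non-Tg samples (SD, n = 4) at 15 months. The edgeR interaction was -1.15 ± 0.46 on the log2 scale (SE; unadjusted p = 0.0209, adjusted p = 0.661). Prdx1 had 76.3 ± 28.1 CPM in PS2APP and 48.3 ± 15.0 CPM in non-Tg samples at 14 months, and 57.4 ± 9.14 CPM in PS2APP and 71.8 ± 16.8 CPM in non-Tg samples at 15 months, with an edgeR interaction of -0.98 ± 0.42 (SE; unadjusted p = 0.0295, adjusted p = 0.666). For Txnip the interaction had an unadjusted edgeR p of 0.241 and for Cybb of 0.576, so neither genotype difference was shown to depend on age.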

How the data were processed

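Total RNA was extracted with a column kit from sorted GFP-positive cells, per the labels' protocols. The submitters' processing notes name GSNAP as the aligner and GRCm38 as the build; the sources used here give no version, annotation, library kit or strandedness. Per the file headers, each sample has a whole-number count of uniquely aligned reads per gene model and an RPKM adjusted by a size factor. How the authors set that size factor is not stated; within a sample it scaled every gene alike. No pair of samples of a group agreed within sampling noise (chi-square per degree of freedom 9.98 to 67.5 over 51 pairs).

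Symbols and coordinates came from RefSeq GRCm38.p6, which matched 31049 of 36528 gene IDs and all 204 listed genes. The deposited counts were tested in R 4.3.3 with edgeR 4.0.16 (filterByExpr, TMM, quasi-likelihood model with age and genotype, 15 samples), with Benjamini-Hochberg adjustment and a threshold of 0.05. Each standard error is the absolute log2 difference over the root of F. The step was tested on simulated counts. CPM uses TMM-scaled totals, and the ratios add 0.5 to each count. DESeq2 1.42.0, limma 3.58.1 (voom on counts, and trend on log2 of RPKM plus 1 or 0.1), other filters and scalings, single ages, left-out libraries and marker scores as covariates were the alternatives.

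The 9 genes, the lists and the tests were chosen with earlier results of these data known. The text names all 9 genes, from each related list the genes called and otherwise the 3 with the smallest adjusted p, and the 3 nearest profiles of the 2 most variable genes. Of the marker genes, those that bear on a result are named. Ly6g, Mpo, Elane, S100a8, S100a9, Ngp, Ly6c2, Plac8, Gfap, Slc1a2, Cspg4, Mobp, Flt1, Pecam1 and Ddx3y were picked after their values were seen. Reads carry no stated molecular identifiers, and the number of reads limits the precision of low genes such as Txn1. One related gene is not reported here.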

Additional observations from a re-analysis of the deposited data

Results flagged for a closer look

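In 26 groups of sample values examined (9 genes and 4 ratios, each in PS2APP and in non-Tg samples), 2 held a sample far from the others of its group. Chance gives about 5% of groups such a sample. The first was Cyba in PS2APP samples, where sample 8 had 230.0 CPM and the other 8 had 94.1 to 154 CPM. The second was Txnrd1 in PS2APP samples, where sample 15 had 60.0 CPM against a group median of 31.98 CPM. Both genes were uncalled between PS2APP and non-Tg samples.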

How the results depend on the processing

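Over all genes 165 were called for genotype, against 648 with no count filter, 388 with DESeq2, 50 at 14 months alone, 65 at 15 months alone, 81 without the 3 libraries low in Xist and 15 with the neuron score as a covariate; leaving out 1 sample gave 118 to 188. For age 0 genes were called, against 103 with no filter and 10 with DESeq2 (0 to 0 leaving out 1 sample), and for the interaction 0, against 94 and 6 (0 to 3 leaving out 1 sample). Of the 9 genes 1 was called, against 2 with no filter, DESeq2 or limma-voom, and 0 at 14 months, at 15 months, with the neuron score, on leaving out the 3 libraries low in Xist or the 4 high in immediate early genes, or on log2(RPKM + 1); leaving out 1 sample gave 0 to 1. Txnip kept its direction in all 31 alternatives (log2 -1.31 to -0.67) and its call in 23, and Cybb its direction in 31 (log2 0.69 to 1.40).

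The ratios lost their calls within an age, where 14 months allows no exact p under 0.0667: Txnip to Txn1 was -1.46 at 14 and -0.66 at 15 months, Txnip to Txnrd1 -1.61 and -1.04, and Cybb to Cyba 0.72 and 1.29. Leaving out 1 sample gave -1.09 to -0.80, -1.48 to -1.01 and 1.0 to 1.48 in that order.

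Alternatives were run for 26 genes; the nearest profiles other than Gm15441, and Mlxip and Mlxipl, were not among them. Signs turned for 7 of the 26, none of them called. Cyba was 0.00 with no scaling factor, 0.07 with limma-voom and 0.75 at 14 months. Ncf1 was 0.12 at 14 months and 0.17 with the neuron score, and Ncf4 -0.02 without the 3 libraries low in Xist. Txn1 was 0.06 with no age term, 0.02 with no scaling factor, 0.00 with no filter, 0.10 with limma-voom, 0.28 at 14 months, 0.08 without the 4 libraries, 0.03 without the 3, and 0.01 on both RPKM scales. Prdx1 was -0.33 at 15 months, -0.04 without the 3 libraries and -0.26 with the neuron score. Gss was 0.03 at 14 months and 0.80 with the neuron score, and Rac2 was 0.10 at 14 months. Leaving out 1 sample gave -0.18 to 0.18 for Cyba, -0.15 to 0.12 for Prdx1 and -0.12 to 0.13 for Txn1. The cause was not tested. No paired analysis was possible because the groups share no replicate numbers. The group sizes of 9 and 6, and 2 non-Tg samples at 14 months, limit what could be called.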

Other observations

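The antioxidant response element letters also occur before 2 of the 8 genes with a promoter window. These are Prdx1 (133 to 125 bases before the start) and Txnrd1 (92 to 84 bases before the start, in 1 of its 3 promoter windows). Over all windows 10.2% hold the letters, a share per window and not per gene. Of the 9 genes 8 had a promoter window in the table used.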
